A study of Homo sapiens with 18 samples.

Results

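The genes described here are 9 histone-modifying enzymes of 2 kinds, those that write or erase methylation on lysine 36 of histone H3 (H3K36) and those that erase methylation on lysine 27 (H3K27). They were chosen by name and not by a rule on their measured values, though earlier results of these data were known. All 9 were found among the 55765 gene rows of the deposited table. NSD1, WHSC1 (also called NSD2), WHSC1L1 (also called NSD3), SETD2 and ASH1L are H3K36 methyltransferases. KDM2A and KDM2B are H3K36 demethylases, and KDM6A and KDM6B are H3K27 demethylases. Transcript levels were measured by sequencing poly(A) RNA from G401, a malignant rhabdoid tumour cell line. The 6 groups came from 3 lines, namely RB1-intact cells in which CRISPR/Cas9 had cut the AAVS1 safe harbour locus instead (WT) and the RB1-deleted clones E1 and F2, each given 10 µM tazemetostat, an EZH2 inhibitor, or an equal volume of DMSO for 11 days, with 3 biological replicates per group. All 6 groups had therefore passed through genome editing, and each RB1 genotype effect rests on single clones, so that a trait of a clone and the loss of RB1 cannot be told apart.

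H3K36 and H3K27 methylation oppose each other on chromatin. PRC2, whose catalytic subunit is EZH2, places trimethylation on H3K27 at silenced genes, and it works poorly on histone tails that already carry H3K36 di- or trimethylation. The NSD enzymes and ASH1L place mono- and dimethylation, whereas SETD2 adds trimethylation over transcribed gene bodies. KDM6A (UTX) and KDM6B (JMJD3) remove the H3K27 methyl groups that PRC2 places. KDM2A and KDM2B bind unmethylated CpG islands through a CXXC domain, and KDM2B brings a variant form of Polycomb repressive complex 1 to them.

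The RB1 transcript was lower in the clones than in WT in every library. It was between 2300 and 2828 normalized counts in the 6 WT libraries and between 505 and 1045 in the 12 libraries of E1 and F2. A normalized count is a read count divided by a size factor of its library. SMARCB1, whose loss defines rhabdoid tumours, had 0 reads in all 18 libraries, below a floor of 3 reads. Depth ranged from 25709489 to 39314860 reads per library. Of 8 markers of blood, endothelial and epithelial cells, 7 were measured (PECAM1 was not analysed here). Their summed level was 13.6 to 22.3 normalized counts in the DMSO libraries and 35.8 to 70.9 in the tazemetostat libraries. Of these, VWF and EPCAM were high enough to be tested. VWF rose in each line (log2 change 3.82 in WT, 2.14 in E1 and 3.50 in F2), to at most 37.3 normalized counts. EPCAM fell in E1 (-1.37, adjusted p = 0.00495 in limma) and F2 (-1.14, adjusted p = 0.0148) and differed by -0.29 in WT (adjusted p = 0.5). CDH5 reached 28.3 normalized counts and LYZ 5.36. HBB was at 0, PTPRC and CD3E did not exceed 1.93, and the part of such cells in the results was not tested. Replicate 2 of the E1 DMSO group stood apart. It was the lowest of its group for 7 of the 9 genes, as were replicate 1 of WT DMSO and replicate 1 of F2 tazemetostat. Its median deviation from the group mean was -0.13 on the log2 scale for genes whose longest transcript has at least 5338 bases and 0.11 for genes with none over 2233 bases. In the other 17 libraries the first of these medians lay between -0.033 and 0.077. Calls that change without it are given with and without it.

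All 9 genes were well measured. The lowest read count of any member in any library was 619, for KDM6A in a WT tazemetostat library, where counting error alone is 4.02% of the value. In bulk RNA, fewer cells that make a transcript and less of it per cell cannot be told apart. A gene was called higher or lower when its adjusted p in limma was under 0.05, with Benjamini-Hochberg adjustment over the 16154 genes that had a mean of at least 10 normalized counts. No limit was set on the fold change. Changes are differences of log2(value + 1) and carry the standard error (SE) of a fit to all 18 libraries.

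**Figure D1:**
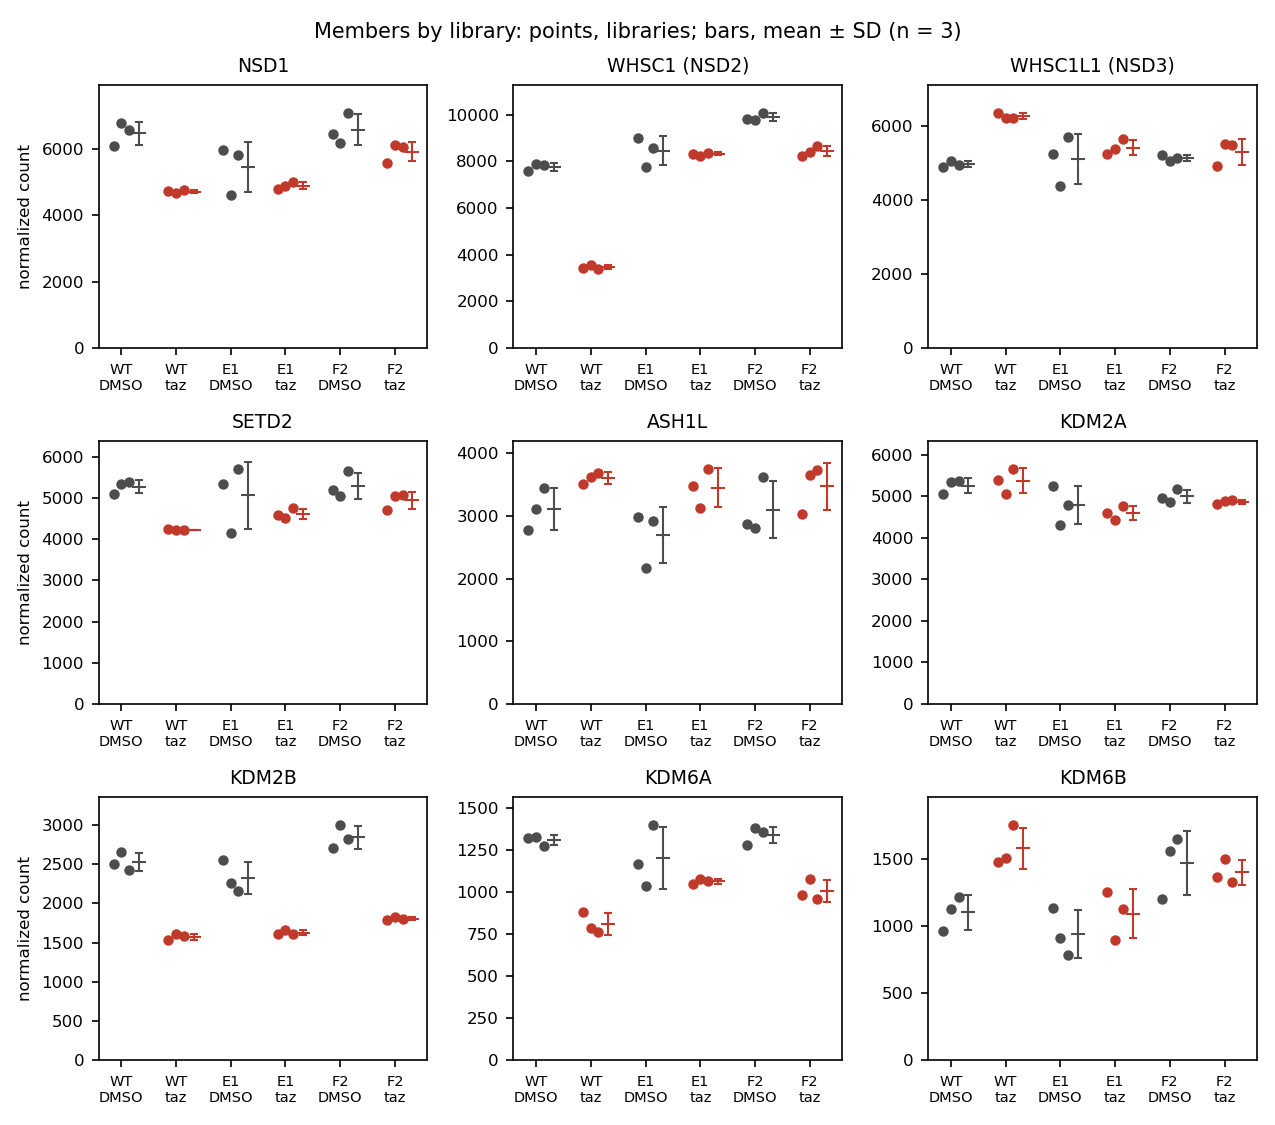
Normalized counts (vertical axes, starting at 0) of the 9 genes in the 18 libraries, by line and treatment (horizontal axes; taz, tazemetostat). Each point is a library and each bar is the mean ± SD of 3 libraries. WHSC1 stands between 3382 and 3552 in the WT tazemetostat libraries and between 7583 and 10086 in all others, whereas KDM2B is lower with tazemetostat in each of the 3 lines.

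Tazemetostat changed 7 of the 9 genes in WT, 2 in E1 and 3 in F2. In WT, 5 genes fell (NSD1, WHSC1, SETD2, KDM2B and KDM6A) and 2 rose (WHSC1L1 and KDM6B). Over all tested genes, 29.4% fell and 34.8% rose in the same comparison. In E1, 1 gene rose (ASH1L) and 1 fell (KDM2B), against 27.1% and 19.7% of all tested genes. In F2, WHSC1, KDM2B and KDM6A fell and none rose, against 23.2% and 29.0% of all tested genes. The median log2 change of the 9 genes was -0.32 for WT, -0.056 for E1 and -0.097 for F2. The medians over all tested genes were 0.026, 0.025 and 0.021. A change of at least 2-fold was seen for WHSC1 in WT only, and 21.3% of all tested genes passed that limit as well as the test there. These p-values rest on the spread between the 3 biological replicates of each group. For each gene, 1 estimate of that spread is shared by all 6 groups and drawn towards that of other genes. An exact permutation test of 3 libraries against 3 cannot give a p under 0.1, so none is quoted for single genes.

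**Figure D2:**
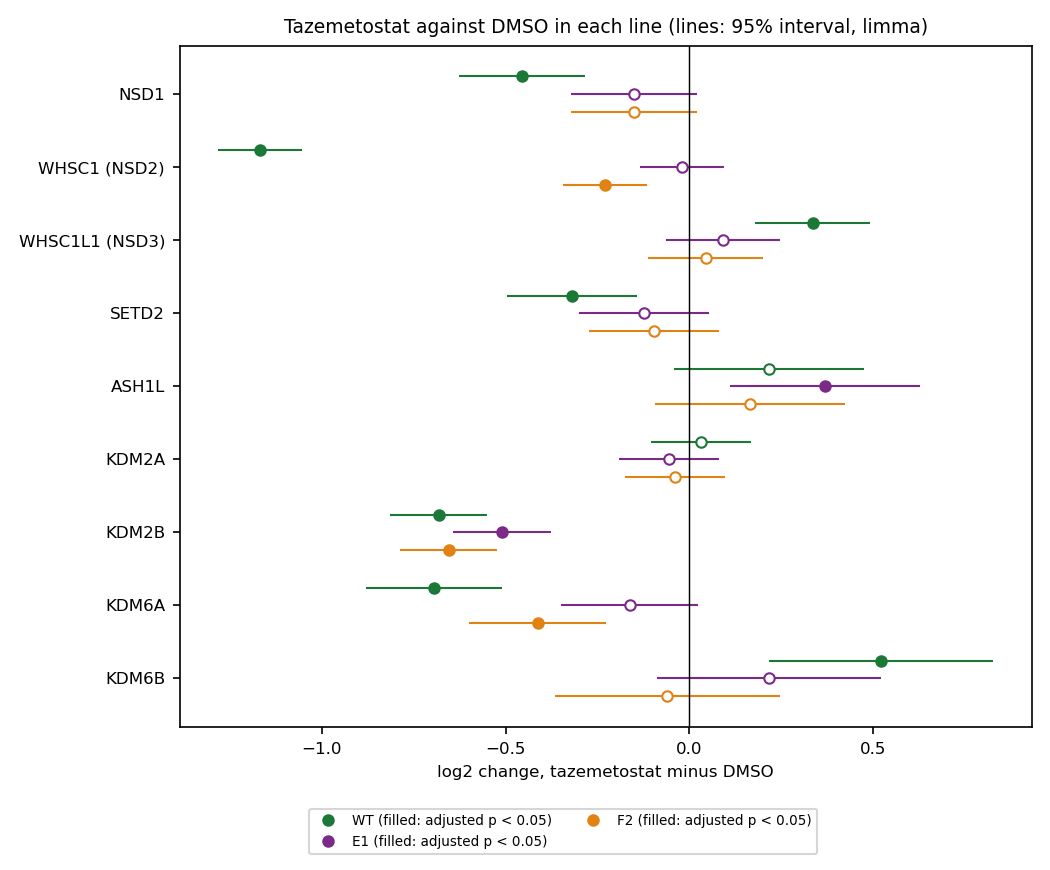
Log2 change with tazemetostat against DMSO (horizontal axis) of each gene in WT, E1 and F2, from limma. Points are estimates, filled where the adjusted p is under 0.05, and lines are 95% intervals. WHSC1 in WT is farthest from 0, at -1.17, and KDM2B is the single gene filled in all 3 lines.

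WHSC1 encodes NSD2, a main writer of H3K36 dimethylation. Its transcript fell by 55.5% with tazemetostat in WT. The WT libraries held 7583, 7893 and 7827 normalized counts in DMSO and 3436, 3552 and 3382 in tazemetostat, which are means of 7768 ± 163 and 3457 ± 87.1 (SD, n = 3). The groups were far apart, and the log2 change was -1.17 ± 0.05 (SE, adjusted p = 8.61e-13 in limma). In E1 the libraries held 9005, 7774 and 8567 in DMSO and 8329, 8249 and 8377 in tazemetostat. These overlapped, with a log2 change of -0.02 ± 0.05 (adjusted p = 0.796, 95% interval -0.13 to 0.09). In F2 they held 9825, 9771 and 10086 in DMSO and 8223, 8416 and 8670 in tazemetostat. The F2 groups did not overlap, and the gene fell by 14.7% (log2 change -0.23 ± 0.05, adjusted p = 0.00146). By group mean, WHSC1 was lowest in WT tazemetostat, followed by WT DMSO, E1 tazemetostat (8318), F2 tazemetostat (8436), E1 DMSO (8448) and F2 DMSO (9894). The libraries of E1 tazemetostat, F2 tazemetostat and E1 DMSO overlapped one another, whereas the lowest and the highest group did not overlap their neighbours in this order.

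The promoter of WHSC1 is shown because this gene had the largest changes of the 9. The sequence is the RefSeq window of 250 bases before to 50 bases after the start of NSD2 on GRCh38.p14, chr4:1871143-1871442, plus strand. Windows of 8 of the 9 genes were searched. Those of WHSC1L1 were left out of the search, so whether they hold a match is not known here. The capitals mark a match to a form of the E2F binding site, which begins 77 bases before the start.
NSD2 promoter: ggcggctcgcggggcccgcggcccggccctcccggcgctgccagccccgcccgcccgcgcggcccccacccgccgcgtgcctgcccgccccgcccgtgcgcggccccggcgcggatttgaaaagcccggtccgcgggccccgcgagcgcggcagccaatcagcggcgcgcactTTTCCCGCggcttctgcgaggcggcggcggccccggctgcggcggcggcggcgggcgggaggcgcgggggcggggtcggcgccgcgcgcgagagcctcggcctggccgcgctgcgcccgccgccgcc
The forms searched were TTTCCCGC and TTTGGCGC, on both strands (GCGGGAAA and GCGCCAAA), which do not overlap each other here. Of the 17 windows of the 8 genes, 1 held a match, as did 2.27% of all 35116 windows of the same length. The match describes the letters of this window and is not evidence of binding. The match was looked for after the values of WHSC1 had been seen.

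NSD1, which also places H3K36 dimethylation and is mutated in Sotos syndrome, fell by 27.1% in WT. Its WT libraries held 6086, 6763 and 6559 normalized counts in DMSO and 4712, 4675 and 4747 in tazemetostat. The groups did not overlap, and the log2 change was -0.46 ± 0.08 (adjusted p = 8.19e-05 in limma). In E1 the libraries held 5968, 4595 and 5821 in DMSO and 4788, 4871 and 4999 in tazemetostat, and the DMSO value below the tazemetostat range is replicate 2. The log2 change in E1 was -0.15 ± 0.08 (adjusted p = 0.141). Without that replicate it was -0.27, and the gene was called lower (adjusted p = 0.0018). In F2 the libraries held 6439, 6186 and 7083 in DMSO and 5572, 6098 and 6064 in tazemetostat. They did not overlap, but the log2 change of -0.15 ± 0.08 did not pass the test (adjusted p = 0.131).

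WHSC1L1 encodes NSD3, the third NSD enzyme, which also has a short form without the catalytic domain. It moved the other way in WT, where it rose by 26.2%. The WT libraries held 4897, 5064 and 4949 normalized counts in DMSO and 6363, 6226 and 6221 in tazemetostat. They did not overlap, with a log2 change of 0.34 ± 0.07 (adjusted p = 0.000659 in limma). In E1 the DMSO libraries held 5246, 4389 and 5710 and the tazemetostat libraries 5248, 5372 and 5647. In F2 the DMSO libraries held 5207, 5067 and 5135 and the tazemetostat libraries 4911, 5518 and 5479. The groups overlapped in both clones, and neither the log2 change of 0.09 ± 0.07 for E1 nor that of 0.04 ± 0.07 for F2 passed the test (adjusted p = 0.335 and 0.65). DDHD2 overlaps this gene on the opposite strand. Whether the counting used the strand is not given in the sources used here, and its share in these values was not tested.

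SETD2, the enzyme that trimethylates H3K36 and travels with RNA polymerase II, fell by 19.9% in WT. Its WT libraries held 5104, 5342 and 5386 normalized counts in DMSO and 4235, 4220 and 4222 in tazemetostat. The groups did not overlap, and the log2 change was -0.32 ± 0.08 (adjusted p = 0.00277 in limma). In E1 the libraries held 5329, 4160 and 5709 in DMSO and 4576, 4514 and 4750 in tazemetostat. Replicate 2 was again the low DMSO value. The log2 change was -0.12 ± 0.08 with it (adjusted p = 0.251) and -0.26 without it, when the gene was called lower (adjusted p = 0.00124). In F2 the libraries held 5183, 5055 and 5646 in DMSO and 4712, 5043 and 5083 in tazemetostat, which overlapped (log2 change -0.10 ± 0.08, adjusted p = 0.353).

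ASH1L, a Trithorax-group dimethyltransferase, had the largest spread among the methyltransferases, with a coefficient of variation of up to 16.7% within a group. In WT its libraries held 2773, 3108 and 3446 normalized counts in DMSO and 3502, 3616 and 3687 in tazemetostat. The WT groups did not overlap, yet the log2 change of 0.22 ± 0.12 did not pass the test (adjusted p = 0.13 in limma). In E1 the DMSO libraries held 2983, 2175 and 2924 and the tazemetostat libraries 3484, 3121 and 3754, and the gene was called higher (log2 change 0.37 ± 0.12, adjusted p = 0.0198). Without E1 DMSO replicate 2 that call was lost, at 0.22 (adjusted p = 0.127). Without E1 tazemetostat replicate 3 it was lost at 0.31 (adjusted p = 0.0905). Scaling to the same total per library (adjusted p = 0.0703) or without the 100 genes with most reads (adjusted p = 0.0652) ended it too. With only the groups compared in the fit, ASH1L passed in WT (adjusted p = 0.0212) and not in E1 (adjusted p = 0.0626). In F2 the DMSO libraries held 2879, 2803 and 3628 and the tazemetostat libraries 3034, 3647 and 3731, which overlapped. The log2 change in F2 was 0.17 ± 0.12 (adjusted p = 0.278). ASH1L-AS1, with a mean of 73.8 normalized counts, overlaps ASH1L on the opposite strand, with the same limit as for WHSC1L1. MIR555 overlaps ASH1L on the same strand, with a mean of 0.0526.

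Of the CpG island-binding demethylases, KDM2B fell in all 3 lines. Its WT libraries held 2502, 2652 and 2429 normalized counts in DMSO and 1531, 1611 and 1581 in tazemetostat. The E1 libraries held 2558, 2257 and 2160 in DMSO and 1606, 1665 and 1613 in tazemetostat. The F2 libraries held 2711, 3004 and 2819 in DMSO and 1784, 1827 and 1805 in tazemetostat. The highest tazemetostat value of any line, 1827, lay below the lowest DMSO value of any line, 2160. In WT the gene fell by 37.7%. In E1 it fell by 29.8% and in F2 it fell by 36.5%. The log2 changes were -0.68 ± 0.06, -0.51 ± 0.06 and -0.65 ± 0.06 (adjusted p = 2.08e-08, 1.65e-06 and 4.62e-08 in limma). RNF34 overlaps KDM2B on the opposite strand, with the same limit as for WHSC1L1.

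KDM2A, its paralogue, did not pass the test in any line. Its libraries ranged from 5056 to 5661 normalized counts in WT, from 4313 to 5245 in E1 and from 4817 to 5173 in F2. The log2 changes were 0.03 ± 0.06 for WT (95% interval -0.11 to 0.17), -0.06 ± 0.06 for E1 (-0.19 to 0.08) and -0.04 ± 0.06 for F2 (-0.18 to 0.10). The adjusted p-values from limma were 0.695, 0.513 and 0.646. The bound farthest from 0 in these intervals was the -0.19 of E1.

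The H3K27 demethylases moved in opposite directions in WT. KDM6A, which acts within the KMT2C and KMT2D complexes at enhancers, held 1323, 1331 and 1275 normalized counts in the WT DMSO libraries and 881, 787 and 762 in the WT tazemetostat libraries. The groups did not overlap, and it fell by 38.2% (log2 change -0.70 ± 0.09, adjusted p = 1.5e-06 in limma). In F2 it held 1283, 1379 and 1358 in DMSO and 981, 1080 and 960 in tazemetostat, again without overlap. It fell by 24.9% there (log2 change -0.41 ± 0.09, adjusted p = 0.000653). In E1 the DMSO libraries held 1170, 1034 and 1401 and the tazemetostat libraries 1051, 1079 and 1065, which overlapped. The change of -0.16 ± 0.09 in E1 did not pass the test (adjusted p = 0.143), and without E1 DMSO replicate 2 it was -0.27 and did (adjusted p = 0.0125). KDM6A has a paralogue on the Y chromosome, UTY, and the part of reads shared by both was not tested.

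KDM6B, an inducible H3K27 demethylase, rose by 43.5% in WT. The WT libraries held 960, 1125 and 1217 normalized counts in DMSO and 1474, 1504 and 1754 in tazemetostat. They did not overlap, with a log2 change of 0.52 ± 0.15 (adjusted p = 0.00433 in limma). In E1 it held 1134, 909 and 782 in DMSO and 1251, 897 and 1127 in tazemetostat. In F2 it held 1198, 1559 and 1650 in DMSO and 1365, 1500 and 1328 in tazemetostat. The groups overlapped in both clones, with log2 changes of 0.22 ± 0.15 for E1 (adjusted p = 0.241) and -0.06 ± 0.15 for F2 (adjusted p = 0.759). KDM6B had the largest spread within a group of the 9 genes, with a coefficient of variation of 18.9% in E1 DMSO.

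Long transcripts behaved differently between libraries, and all 9 genes have an annotated transcript of at least 5338 bases. Each library was then centred by transcript length, a step chosen after seeing the data. With it, 7 members passed the test in E1 and 7 in F2. The share of all genes that passed under this centring is not reported here. The centring subtracted, in each library, the median deviation of genes of like length from their means over the 18 libraries. Shifts that such genes share by treatment or line were removed too, so the changes below are relative to genes of like length. In F2 the added genes were NSD1 (-0.34), SETD2 (-0.20), KDM2A (-0.17) and WHSC1L1 (-0.14), and WHSC1L1 turned from a rise that had not passed the test to a fall (adjusted p = 0.0181). In E1 the added genes were NSD1 (-0.28), WHSC1 (-0.13), SETD2 (-0.24), KDM2A (-0.19) and KDM6A (-0.24).

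**Figure D3:**
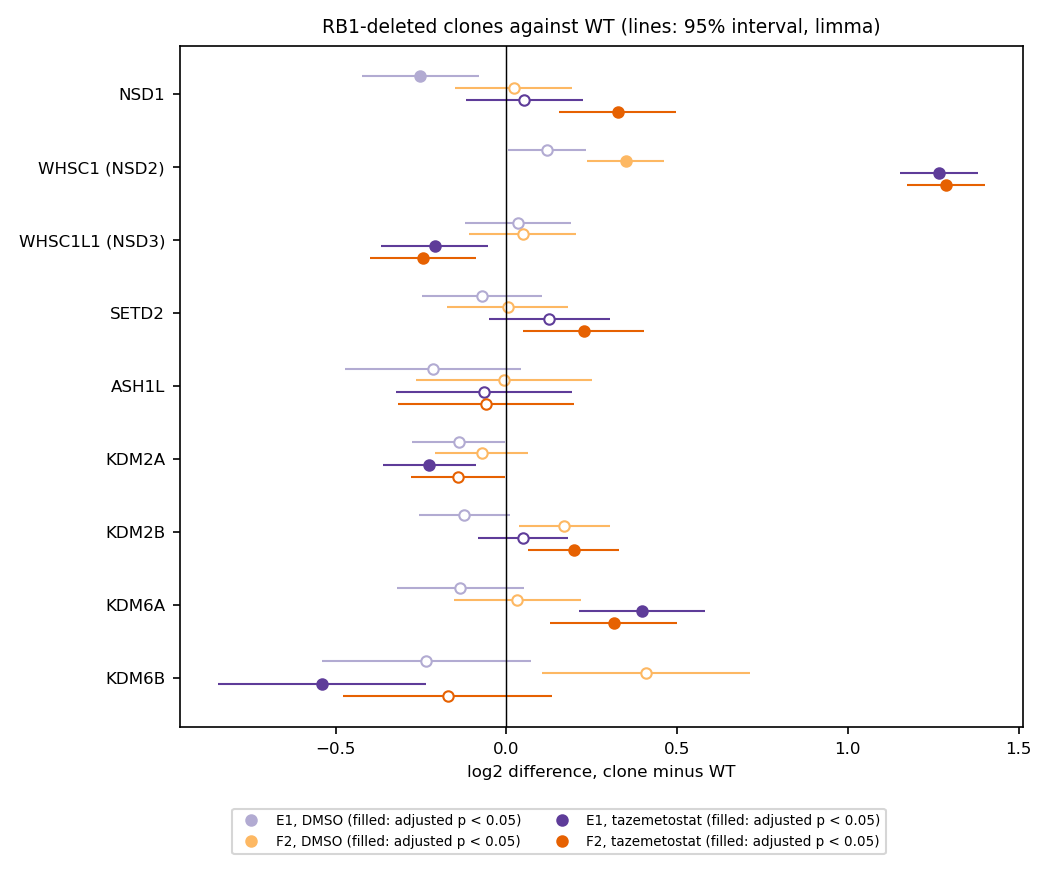
Log2 difference of the RB1-deleted clones E1 and F2 from WT (horizontal axis) for each gene, in DMSO (pale) and in tazemetostat (dark), from limma. Points are filled where the adjusted p is under 0.05 and lines are 95% intervals. In tazemetostat WHSC1 stands at 1.27 in E1 and 1.29 in F2, and every other gene lies between -0.54 and 0.40.

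Without the drug, few of the 9 genes differed between the clones and WT. In E1, NSD1 was lower than in WT (log2 difference -0.25 ± 0.08, adjusted p = 0.0311 in limma), against 11.7% of all tested genes that were lower and 11.4% that were higher. The call was lost without E1 DMSO replicate 2, at -0.13 (adjusted p = 0.149), and without WT DMSO replicate 2, at -0.22 (adjusted p = 0.12). It was also lost without WT DMSO replicate 3, at -0.24 (adjusted p = 0.0855). With only the groups compared in the fit it was lost as well (adjusted p = 0.2455), and 1601 of all genes then passed, against 3740. Without E1 DMSO replicate 2, WHSC1 was called higher in E1 instead, at 0.18 (adjusted p = 0.0119). Leaving out E1 DMSO replicate 1 added calls of KDM2A (-0.21, adjusted p = 0.0269) and KDM2B (-0.19, adjusted p = 0.0289) as lower in E1. Leaving out E1 DMSO replicate 3 added KDM6A as lower (-0.25, adjusted p = 0.0184). In F2, WHSC1 was 27.4% higher than in WT (log2 difference 0.35 ± 0.05, adjusted p = 0.000139), against 8.10% of all tested genes that were higher and 12.1% that were lower. The WHSC1 values of these groups did not overlap. KDM6B differed by 0.41 ± 0.15 and KDM2B by 0.17 ± 0.06 in F2, short of the threshold (adjusted p = 0.0545 and 0.0651). DESeq2 on the recovered reads called both, with adjusted p-values of 0.0204 and 0.0489.

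With tazemetostat in both lines, 5 of the 9 genes differed between E1 and WT and 6 between F2 and WT. In E1, WHSC1 and KDM6A were higher and WHSC1L1, KDM2A and KDM6B were lower, where 25.0% of all tested genes were higher and 26.9% lower. In F2, NSD1, WHSC1, SETD2, KDM2B and KDM6A were higher and WHSC1L1 was lower, against 25.1% and 27.9%. WHSC1 was 2.41-fold its WT level in E1 (log2 difference 1.27 ± 0.05, adjusted p = 3.44e-12 in limma) and 2.44-fold that level in F2 (1.29 ± 0.05, adjusted p = 2.39e-12). All 6 WHSC1 values of the treated clones, 8223 to 8670, also lay above the 3 values of WT in DMSO. KDM6A was 31.7% higher in E1 (0.40 ± 0.09, adjusted p = 0.00106) and 24.4% higher in F2 (0.31 ± 0.09, adjusted p = 0.00593). KDM6B was at 0.69-fold its WT level in E1 (-0.54 ± 0.15, adjusted p = 0.00464), and in F2 it differed by -0.17 ± 0.15 (adjusted p = 0.335).

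The remaining differences under tazemetostat were smaller. NSD1 was 25.4% higher in F2 (0.33 ± 0.08, adjusted p = 0.00255 in limma), with 0.05 ± 0.08 in E1 (adjusted p = 0.617). KDM2A was at 0.85-fold its WT level in E1 (-0.23 ± 0.06, adjusted p = 0.0071), and KDM2B was 14.7% higher in F2 (0.20 ± 0.06, adjusted p = 0.0135). SETD2 was 1.17-fold its WT level in F2 (0.23 ± 0.08, adjusted p = 0.0305), a call lost when any of the 6 libraries compared other than F2 tazemetostat replicate 1 was left out (0.21 to 0.23, adjusted p up to 0.0918). WHSC1L1 was lower in E1 (-0.21 ± 0.07, adjusted p = 0.0241) and in F2 (-0.24 ± 0.07, adjusted p = 0.00995). Both WHSC1L1 calls were lost when libraries were scaled to the same total, at -0.15 and -0.10 (adjusted p = 0.102 and 0.272). KDM2A in E1 was lost under that scaling as well, at -0.16 (adjusted p = 0.0556). Leaving out WT tazemetostat replicate 1 ended the calls of WHSC1L1 in E1 (adjusted p = 0.0676) and KDM2B in F2 (adjusted p = 0.0538). Leaving out E1 tazemetostat replicate 1 or 2 ended that of WHSC1L1 in E1 (adjusted p = 0.0736 and 0.0596), and leaving out F2 tazemetostat replicate 1 ended that of WHSC1L1 in F2 (adjusted p = 0.0616). The comparisons of E1 and F2 share the WT libraries, so their values are set side by side and are not independent.

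The change with tazemetostat was then compared between lines directly, as the log2 change in a clone minus that in WT. Between E1 and WT, 3 members had a more positive change in E1 and none a more negative one, against 17.2% and 18.2% of all tested genes. For WHSC1 this difference was 1.15 ± 0.08 (adjusted p = 4.01e-09 in limma), and for KDM6A it was 0.53 ± 0.12 (adjusted p = 0.00283). For NSD1 it was 0.30 ± 0.12 (adjusted p = 0.0474), and that call was lost without E1 DMSO replicate 2, at 0.19 (adjusted p = 0.102). It was lost in 9 of the 12 fits that left out 1 library, all but those without WT DMSO replicate 1, E1 DMSO replicate 1 or E1 DMSO replicate 3. WHSC1L1 had a difference of -0.24 ± 0.10 in E1 that did not pass (adjusted p = 0.0794). Without E1 DMSO replicate 2 it was -0.35 and was called more negative (adjusted p = 0.00207), and with centring by transcript length it was -0.25 and also called (adjusted p = 0.00741). Between F2 and WT, WHSC1 had a more positive change, and WHSC1L1 and KDM6B more negative ones, against 13.7% and 13.2% of all tested genes. The difference was 0.94 ± 0.08 for WHSC1 (adjusted p = 7.21e-08), -0.29 ± 0.10 for WHSC1L1 (adjusted p = 0.047) and -0.58 ± 0.21 for KDM6B (adjusted p = 0.0436). The WHSC1L1 call was lost in each of the 12 fits that left out 1 library, with values from -0.32 to -0.24 and adjusted p-values from 0.0527 to 0.125. The KDM6B call was lost in 10 of 12, the exceptions being those without WT DMSO replicate 3 and without F2 DMSO replicate 1, with values from -0.72 to -0.49 and adjusted p-values from 0.0134 to 0.112.

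NSD1 shows how near the threshold some of these calls are. Its response differed from that in WT by 0.30 ± 0.12 in both clones, yet it passed in E1 and not in F2 (adjusted p = 0.0584). KDM6A differed by 0.28 ± 0.12 in F2, which did not pass (adjusted p = 0.106, 95% interval 0.02 to 0.54). KDM2B, which fell in each line, had a response that differed from that of WT by 0.17 ± 0.09 for E1 and 0.03 ± 0.09 for F2 (adjusted p = 0.145 and 0.856, 95% intervals -0.02 to 0.36 and -0.16 to 0.21). For SETD2, ASH1L and KDM2A no difference in response passed the test, with adjusted p-values from 0.182 to 0.859.

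The H3K36 methyl readers and the partner enzymes of the 9 genes were taken as lists. Their counts are read against all tested genes, of which 29.4% fell and 34.8% rose in WT, 19.7% and 27.1% in E1, and 23.2% and 29.0% in F2. Of 17 readers, proteins that bind methylated H3K36 through PWWP, Tudor or chromo domains, 8 fell and 2 rose in WT (BRPF3 and PHF1), with a median log2 change of -0.20. The readers with the largest changes were DNMT3B, a de novo DNA methyltransferase, at -1.49 ± 0.08, PSIP1 at -1.41 ± 0.08 and PWWP2A at -1.30 ± 0.08. In E1, 8 fell and 1 rose (median -0.19), and in F2, 6 fell and 1 rose (median -0.057). DNMT3B fell in all 3 lines, by 0.99 in E1 and 0.98 in F2 on the log2 scale. Its change was less negative than in WT in both clones, by 0.50 in E1 (adjusted p = 0.00223 in limma) and 0.52 in F2 (adjusted p = 0.00246). PSIP1 differed by 1.00 in E1 and 0.71 in F2 (adjusted p = 2.45e-06 and 0.000145). BRPF3 was the single reader that rose in each line, by 0.57 (WT), 0.30 (E1) and 0.44 (F2), and it is named after its values were seen, as are the genes of small counts below.

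**Figure D4:**
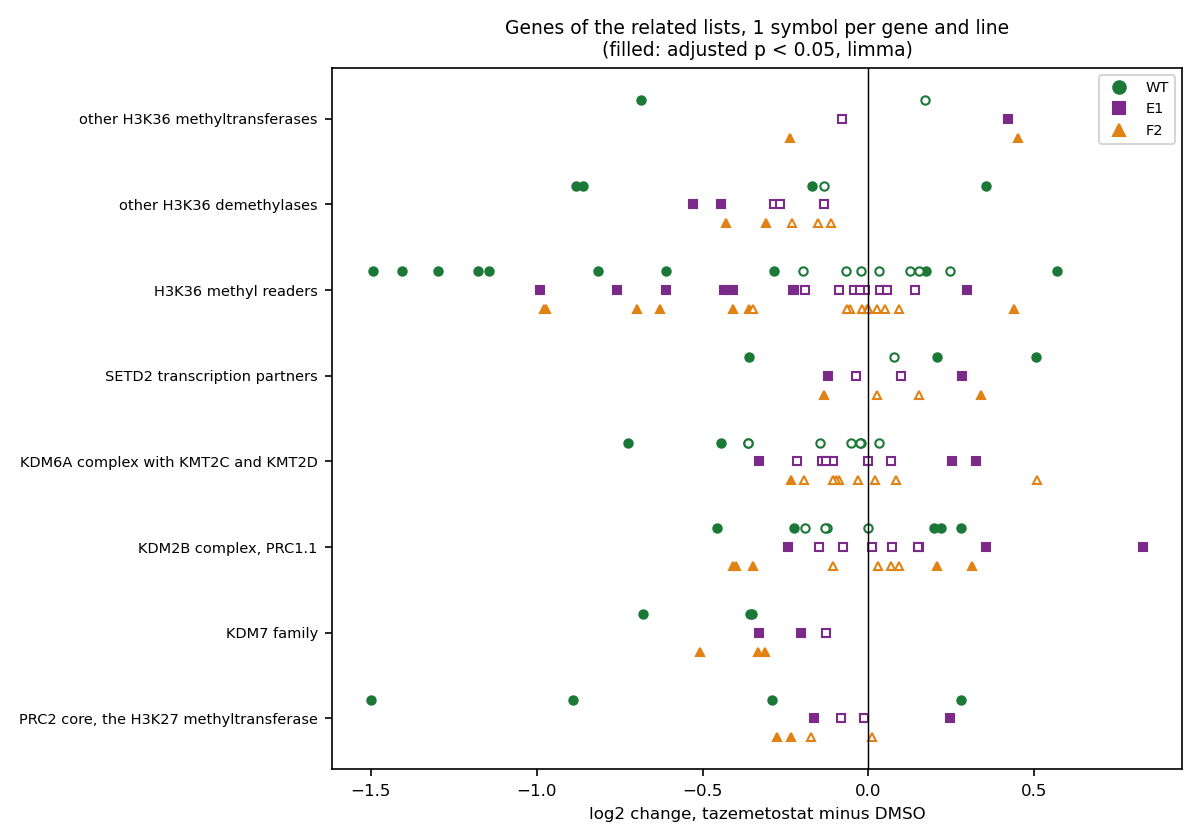
Log2 change with tazemetostat against DMSO (horizontal axis) of each tested gene of the 8 related lists (vertical axis) in WT, E1 and F2, from limma. Each symbol is a gene in a line, filled where the adjusted p is under 0.05. The reader list and the PRC2 core hold the lowest values in WT, DNMT3B at -1.49 and EZH2 at -1.50.

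EZH2, the target of tazemetostat and the enzyme whose product KDM6A and KDM6B erase, was, like WHSC1, lowest in the WT tazemetostat group. It held 2478 ± 89.4 normalized counts in WT DMSO and 876 ± 42.1 in WT tazemetostat (SD, n = 3). In the same order, E1 held 3178 ± 349 and 2989 ± 63.3 and F2 held 3207 ± 148 and 2649 ± 60.3. The log2 change was -1.50 ± 0.07 for WT, -0.08 ± 0.07 for E1 and -0.27 ± 0.07 for F2 (adjusted p = 6.65e-13, 0.344 and 0.00225 in limma). Of the 4 core PRC2 genes, EED and SUZ12 also fell in WT, by 0.89 and 0.29 on the log2 scale, and EZH1 rose by 0.28. E1 had a rise of EZH1 and a fall of EED, and F2 had falls of EZH2 and EED.

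The KDM7 family holds demethylases of H3K9, and KDM7A also acts on H3K27. All 3 members, PHF2, PHF8 and KDM7A (listed as JHDM1D), fell in WT (-0.68, -0.35 and -0.36) and in F2 (-0.31, -0.33 and -0.51), and PHF8 and KDM7A fell in E1 (-0.20 and -0.33). Of 9 partners of KDM2B in its Polycomb complex, RNF2, RYBP and BCORL1 rose and BCOR and RING1 fell in WT. RNF2 and RYBP rose in each line, RYBP most in E1 (0.83 ± 0.08). In E1 SKP1 fell, and in F2 BCOR, PCGF1 and SKP1 fell. Of 9 partners of KDM6A in the KMT2C and KMT2D complexes, PAXIP1, PAGR1 and WDR5 fell in WT (-0.44, -0.73 and -0.36) and none rose, a share of falls near the 29.4% of all tested genes. In E1 PAGR1 fell while PAXIP1 and NCOA6 rose, and in F2 DPY30 fell.

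Of 4 genes that work with SETD2 in transcription, SUPT6H and POLR2A rose and HNRNPL fell in WT. HNRNPL also fell in E1 and F2, while IWS1 rose in E1 and POLR2A in F2. Of 5 tested other H3K36 demethylases, KDM4A, KDM4D and KDM8 fell and KDM4B rose in WT. KDM4A and KDM8 fell in E1, and KDM4A and KDM4C in F2. Of the other methyltransferases, SETMAR fell in WT and F2, and SMYD2 rose in E1 and F2. PRDM9 and RIOX1 (listed as C14orf169) were at 0 in every library.

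Across the 18 libraries, the 9 genes did not form a single pattern. Pearson's r of log2(value + 1) was highest between NSD1 and SETD2, at 0.908, and lowest between WHSC1 and WHSC1L1, at -0.709. KDM2B and KDM6A had an r of 0.828, and KDM6A and KDM6B of -0.417. These values are a description, since the libraries share treatment, line and size factors. Among 12975 other genes with a mean of at least 50, those most like WHSC1 were H2AFY2 (r = 0.991), DDX11 (0.989) and PRIM1 (0.987). Those most like KDM2B were HOXC13 (0.978), CALCRL (0.973) and MKS1 (0.972), and those most like NSD1 were TET2 (0.954), XRN1 (0.951) and TTBK2 (0.950). XRN1 (0.951) was also among the genes most like SETD2, after CEP350 (0.964) and REV3L (0.963). KDM6A was most like WDR19 (0.961), FNDC3A (0.958) and WRN (0.953), and KDM6B most like MLLT6 (0.970), ZFP41 (0.927) and PIAS3 (0.923). For WHSC1L1 the closest were USP53 (0.915), PTPN21 (0.905) and CNOT4 (0.898). For ASH1L they included ZBED6 (0.917) and MYCBP2 (0.866), and for KDM2A they were NCOA3 (0.871), ZKSCAN1 (0.851) and URB1 (0.849).

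The order of the 9 genes by level per length depended on the length used. Per kilobase of the longest transcript in GENCODE v29, WHSC1 was highest at 901 normalized counts and KDM6B lowest at 188, with KDM6A at 189. Per kilobase of the median transcript, NSD1 was highest and KDM6A lowest, at 9807 and 318. No order between genes is therefore given.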

How the data were processed

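RNA from 18 cultures was sequenced in pairs of reads after poly(A) selection with a stranded kit, per the labels' protocols. The authors deposited 1 table whose values are a signal, gene read counts divided by a size factor per library. The submitters' processing notes name Trim Galore 0.4.4, STAR 2.6.0a, HTSeq, DESeq2 and hg19, without settings. The annotation and any use of strand in counting are not given in the sources used here, so no hg19 coordinates are printed. Multiplying by the size factors, which ran from 0.812 to 1.14, gave whole reads for 100% of the values in every library, within 1e-06 of a read. No column of values was left unused (0 unassigned).

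The members and the related lists were chosen with earlier results of these data known. The named genes are all 9 members, RB1, SMARCB1 and EZH2, the genes of each list past the test with a log2 change of at least 1 in a treatment comparison (at most 3 per list and comparison, largest first), the genes behind list counts of 5 or fewer (named after their values were seen), and for each member the 3 genes with the highest Pearson's r over the 18 libraries, of which 1 is not reported here. Groups and replicate numbers came from the sample labels.

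Tests used limma 3.58.1 in R 4.3.3 (lmFit and eBayes with a trend) on log2(value + 1) with 1 fit of 6 group means for 9 contrasts, without a replicate block. The fit was also run on simulated data with the same spread for all genes and groups, and the outcome is not reported here. In the libraries the spread differed between groups, so that run does not show how the fit does on them. Alternatives were pseudocounts of 0.5 and 5, mean minimums of 1 and 50, a log2 limit of 1, other scalings, only the groups compared, the replicate block, each library left out, edgeR 4.0.16 (quasi-likelihood) and DESeq2 1.42.0 on the recovered reads. Centring by transcript length (GENCODE v29, lengths for 88.0% of tested genes) was chosen after seeing the data. The replicate numbers are shared by all groups. Same-numbered libraries had deviations from their group means that correlated at -0.244 to 0.375, and every pair exceeded 0.1 in 1 of 7 comparisons, F2 against WT in DMSO (0.182, 0.108 and 0.375). Nothing in the labels says what a number stands for. No 2 libraries of a group agreed within counting noise (chi-square per gene of at least 2.38). The 95% intervals come from the limma fit and the spread between libraries. The floor of 3 reads and the counting error cover counting only, since copies made by PCR were not told apart. Plots were made in Python 3.11.15 (matplotlib 3.10.9).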

Additional observations from a re-analysis of the deposited data

Results flagged for a closer look

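For 6 results the response to tazemetostat differed between a clone and WT by the limma test of the difference itself. Of all 16154 tested genes, 17.2% had a more positive response in E1 than in WT and 18.2% a more negative one. For F2 these shares were 13.7% and 13.2%, so the count of 6 is not read as a trait of the 9 genes. WHSC1 differed by 1.15 in E1 and 0.94 in F2 on the log2 scale, with log2 changes of -1.17 (WT), -0.02 (E1) and -0.23 (F2). KDM6A differed by 0.53 in E1 (-0.70 in WT, -0.16 in E1) and NSD1 by 0.30 in E1 (-0.46 in WT, -0.15 in E1). In F2, WHSC1L1 differed by -0.29 (0.34 in WT, 0.04 in F2) and KDM6B by -0.58 (0.52 in WT, -0.06 in F2). The WHSC1 and KDM6A results passed in all 24 alternatives other than the log2 limit. NSD1 passed in 13 of 24, WHSC1L1 in 9 and KDM6B in 9.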

How the results depend on the processing

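Of 81 results (9 genes in 9 comparisons), 31 passed the test. Of the 16154 tested genes, 8.10% to 34.8% were called higher and 11.7% to 29.4% lower, depending on the comparison. The count of 31 is therefore not read as a trait of these 9 genes. All 31 kept their sign in every alternative. Leaving the log2 limit aside, 21 of them passed in every alternative. The exceptions were NSD1, WHSC1L1 and KDM6B among the response differences, ASH1L and NSD1 in E1, and KDM2A, KDM2B, SETD2 and WHSC1L1 among clone differences with tazemetostat. With a log2 limit of 1, members past the test numbered 1 (tazemetostat in WT), 0 (E1), 0 (F2), 0 (E1 against WT in DMSO), 0 (F2 against WT in DMSO), 1 and 1 (E1 and F2 against WT in tazemetostat), and 1 and 0 (response differences of E1 and F2), the 1 being WHSC1 each time. All genes past it numbered 3436, 2434, 2745, 814, 481, 1833, 1984, 1616 and 1208 in that order, against 10367, 7554, 8438, 3740, 3260, 8373, 8573, 5720 and 4344 without the limit. With only the groups compared in the fit, E1 against WT in DMSO gave 1601 genes and 0 members, tazemetostat in E1 gave 1 member and the F2 response difference 6. With a mean minimum of 1 the F2 response difference gave 1 member. For F2 against WT in DMSO, a mean minimum of 50, the same total per library, scaling without the 100 genes with most reads, and edgeR each gave 2 members, and DESeq2 gave 3. The same total per library gave 3 members for E1 against WT in tazemetostat. That scaling moved the median of all genes from 0.026 to -0.12 for tazemetostat in WT, from -0.0024 to 0.14 for F2 against WT in tazemetostat and from 0.0072 to 0.13 for the F2 response difference. Centring by transcript length gave 7 members for tazemetostat in E1 and 7 in F2. It gave 2 and 3 for E1 and F2 against WT in DMSO and 6 for the F2 response difference. WHSC1L1 with tazemetostat in F2 was reversed (-0.14). The shares of all genes that passed under this centring are not reported here. Leaving out 1 library gave 1 to 4 members for tazemetostat in E1, 0 to 3 for E1 against WT in DMSO, 1 to 2 for F2 against WT in DMSO and 1 to 2 for the F2 response difference. All genes for F2 against WT in DMSO then numbered 2141 (without WT DMSO replicate 2) to 3028. With the replicate block, counts of members were as before except that KDM6B in the F2 response difference was lost (adjusted p = 0.0549 in limma), and F2 against WT in DMSO gave 3295 genes and the same count of 1 member. The cause of these differences was not tested, except that the log2 limit restricts the calls by construction. Depth limited none of the 9 genes, whose lowest read count was 619.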
